A study of Mus musculus with 4 samples.

Results

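Sebaceous glands make and release sebum, and their cells build its fatty acids through a short chain of enzymes under the control of nuclear receptors. *Elovl6* lengthens saturated fatty acids, *Scd2* introduces a double bond into them, *Cidea* is a protein of the lipid droplet surface, *Fabp5* is a fatty acid carrier of keratinocytes, and *Hpgd* breaks down prostaglandins. *Pparg*, the receptor known for driving fat storage in adipocytes and sebocytes, and *Ppara*, the receptor known for driving fatty acid oxidation in muscle and liver, bind DNA as partners of RXR receptors such as *Rxra*. These 7 genes were chosen by name from a panel that holds 321 others, measured in place on sections of mouse skin and cheek lining. All 7 were detected on every slide, between 45.5 and 6091 times the mean of the control codes.

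The measurements came from 4 Xenium slides, on which single RNA molecules are read by imaging in 5 µm sections of fixed, paraffin-embedded tissue. By the labels, unwounded skin of males and of females filled 1 slide each, another slide held buccal mucosa of both sexes, and the last held wounded male skin taken 4 days after wounding. The skin slides hold Control tissue with vehicle and PITX1+ tissue with doxycycline; the buccal slide holds Control tissue with vehicle. In the study's mice, Krt5-rtTA and TRE-Pitx1 together give doxycycline-dependent PITX1, so the transgene is driven through the Krt5 promoter, which is active in basal keratinocytes. Littermates on normal chow were the Controls, doxycycline chow was started in telogen, the resting phase of the hair cycle, and the wounds were full-thickness excisions. Age is not given in the sources used here.

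The labels give 1 sample per slide, so sections were separated by position and their condition was taken from their order on the slide. This gave 3 Control and 4 PITX1+ sections of unwounded skin (Control 1 and 2 and PITX1+ 1 and 2 on the female slide, Control 3 and PITX1+ 3 and 4 on the male slide), 7 buccal sections, 1 Control wound and 2 PITX1+ wounds. For 14 of the 14 unwounded sections, the nearest cell total listed in the study's material carried the same condition, with differences of at most 4.91%. The labels do not tie a section to an animal, while a legend of the study counts the unwounded sections as separate skins, mice and mucosae; all p-values measure the spread between sections. Slide and sex are the same variable in skin, and buccal tissue and its slide cannot be told apart.

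The targeted gene did not follow the assigned condition on both slides. *Pitx1*, given as counts per 1000000 transcripts of the cells in question (CPM), was at 35.1, 27.6 and 24.2 CPM in the epidermal cells of Control 1 to 3. It was at 26.5 and 32.6 CPM in PITX1+ 1 and 2, which lie within the Control range, and at 555 and 143 CPM in PITX1+ 3 and 4, which lie above it. Over whole sections the PITX1+ minus Control difference of *Pitx1* was -0.11 on the log2 scale within the female slide (edgeR adjusted p = 0.855) and 5.32 within the male slide (adjusted p = 0.0169). PITX1+ is therefore used below for the sections assigned to PITX1+, and female and male values are given apart for the PITX1+ differences that passed in unwounded skin. Those values come from 1 fit over all 7 sections that share 1 estimate of the spread, and the single male Control section is assumed to vary like the others.

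Sections held between 474847 and 749248 transcripts in Control skin, 2832562 and 5581930 in PITX1+ skin, 136365 and 2368603 in buccal mucosa, and 1622746 and 5430303 in wounds. The median cell had 26 to 32 transcripts in Control, 37 to 87 in PITX1+, 41 to 125 in buccal sections and 58 to 62 in wounds, so that depth moved with the condition; its part in the results was not tested. Cells were clustered without the 7 genes and classes were named from marker genes. The sebaceous-like class (8032 cells in all) had *Krt79* in 94.1% and *Prxl2a* in 81.6% of its 6985 cells in unwounded skin; 12 of its cells lay in buccal sections, with *Krt79* in 0 of them. The nerve-like class (3566 cells in all) had *Drp2* in 69.6% and *Ncmap* in 56.9% of its 1442 cells in unwounded skin, and in 65.0% and 60.3% of its 1775 buccal cells. The muscle class (16621 cells in all) is called Des-led, because *Des*, the muscle intermediate filament gene, was found in 99.6% of its 4676 cells in unwounded skin and 99.7% of its 10981 buccal cells, while *Fgfr4* was found in 2.72% and 3.68%. Basal, activated, suprabasal epidermal-like and suprabasal oral-like keratinocytes together are called epidermal cells (59448 cells), and 102251 cells stayed unnamed.

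PPAR, RXR and ROR receptors read the hexamer AGGTCA, and the promoter sequences that hold it are shown because *Pparg*, *Ppara*, *Rxra* and *Rora* are all on the panel. RefSeq windows ran from 250 bases before to 50 bases after each start (GRCm38.p6). The search covered 6 promoters of 4 of the 7 genes (*Elovl6*, *Hpgd*, *Ppara* and 3 starts of *Pparg*). *Scd2* and *Fabp5* had no promoter listed, and *Cidea* was left out of the search, so nothing is said about its promoter. The hexamer, searched on both strands, was in 3 of the 6, and in 16.3% of all promoters in the table. The stretches around it follow, on the plus strand, 5′ to 3′, with the hexamer or its reverse complement in capitals, at chr3:129532186-129532205 for *Elovl6* and at chr6:115361109-115361128 and chr6:115362333-115362352 for the 2 *Pparg* starts.
Elovl6: ttgagtaTGACCTcaaggcc
Pparg start a: ccgcctcAGGTCAgagtcgc
Pparg start b: cgcgaggAGGTCAagaaggg
Counted from the start of transcription, the first base of the hexamer lay at -193 in *Elovl6* and at -28 and -9 at the *Pparg* starts. The DR1 repeat of the PPAR and RXR pair, which is AGGTCA, any base and AGGTCA again, was in none of the 6 and in 0.0396% of all promoters, the sterol response motif TCACNCCAC in none of the 6 and in 1.24%, and TAATCC, the core read by PITX proteins, in none of the 6 and in 7.06%. None of the 3 hexamers therefore overlapped another motif searched, although the DR1 repeat contains the hexamer by its spelling. A match is a description of these letters, and a motif that was not found says nothing about the factor.

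In skin, the sebaceous-like class held the highest level of 5 of the 7 genes among the named classes. The rest of the panel was not ordered in this way, so the count cannot be called particular to these genes. The unnamed cells, 23.7 to 36.0% of Control and 12.4 to 37.8% of PITX1+ cells, are left out of the order; summed over the unwounded skin sections they held 45653 CPM of *Krt79*, 3260 CPM of *Elovl6*, 1791 CPM of *Cidea* and 15971 CPM of *Fabp5*. *Elovl6* averaged 131952 CPM ± 55086 (SD, n = 7 sections) in sebaceous-like cells, against 4860 CPM in the next class, vascular-like cells, and 453 CPM in Des-led cells. *Cidea* averaged 51953 CPM ± 37780 there, against 543 CPM in hair follicle-like cells, the next named class. *Fabp5* averaged 90432 CPM ± 30726, against 14353 CPM ± 19232 in epidermal cells and 549 CPM in Des-led cells. In each of these genes the sebaceous-like class lay above the next class in 7 of 7 sections (exact two-sided sign-flip test, p = 0.0156, the smallest 7 sections allow, adjusted p = 0.137 over 105 pairs of neighbouring classes).

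The receptors had the same top class and different seconds. *Pparg* averaged 9477 CPM ± 4023 in sebaceous-like cells and 2885 CPM ± 1410 in vascular-like cells, with 50.5 CPM in epidermal cells at the bottom of the order. *Ppara* averaged 3696 CPM ± 1574 in sebaceous-like cells and 990 CPM ± 648 in Des-led cells, then 431 CPM in vascular-like and 429 CPM in epidermal cells. Both receptors were higher in sebaceous-like cells than in the second class in 7 of 7 sections (exact p = 0.0156, adjusted p = 0.137). Of all 105 neighbouring pairs, 56 in skin and 49 in buccal mucosa, 0 passed after adjustment and 26 passed at an unadjusted p under 0.05. The pairs were formed by ranking the same means that were tested. With 7 sections the exact p cannot fall below 0.0156, which left little room to pass over 105 pairs. The whole order, the top class included, is therefore a description.

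For *Scd2* and *Hpgd* the gland did not have the highest mean. *Scd2* averaged 34093 CPM ± 8070 in nerve-like cells and 21351 CPM ± 16054 in sebaceous-like cells, with nerve-like cells higher in 5 of 7 sections (exact p = 0.141). The order of these classes was not the same in every group: the gland was above nerve-like cells in PITX1+ 1 (36822 against 27553 CPM) and PITX1+ 2 (33372 against 24135 CPM), and below them in the 3 Control sections and the male PITX1+ sections; *Scd2* is known from brain and nerve, where Schwann cells wrap axons in lipid-rich myelin. Hair follicle-like cells followed at 9732 CPM and Des-led cells were lowest at 1459 CPM. *Hpgd* averaged 3290 CPM ± 3295 in fibroblast-like cells and 1734 CPM in immune-like cells, with fibroblast-like cells higher in 7 of 7 sections (exact p = 0.0156, adjusted p = 0.137). Sebaceous-like cells, at 440 CPM ± 341, and Des-led cells, at 175 CPM, were its lowest classes.

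**Figure D1:**
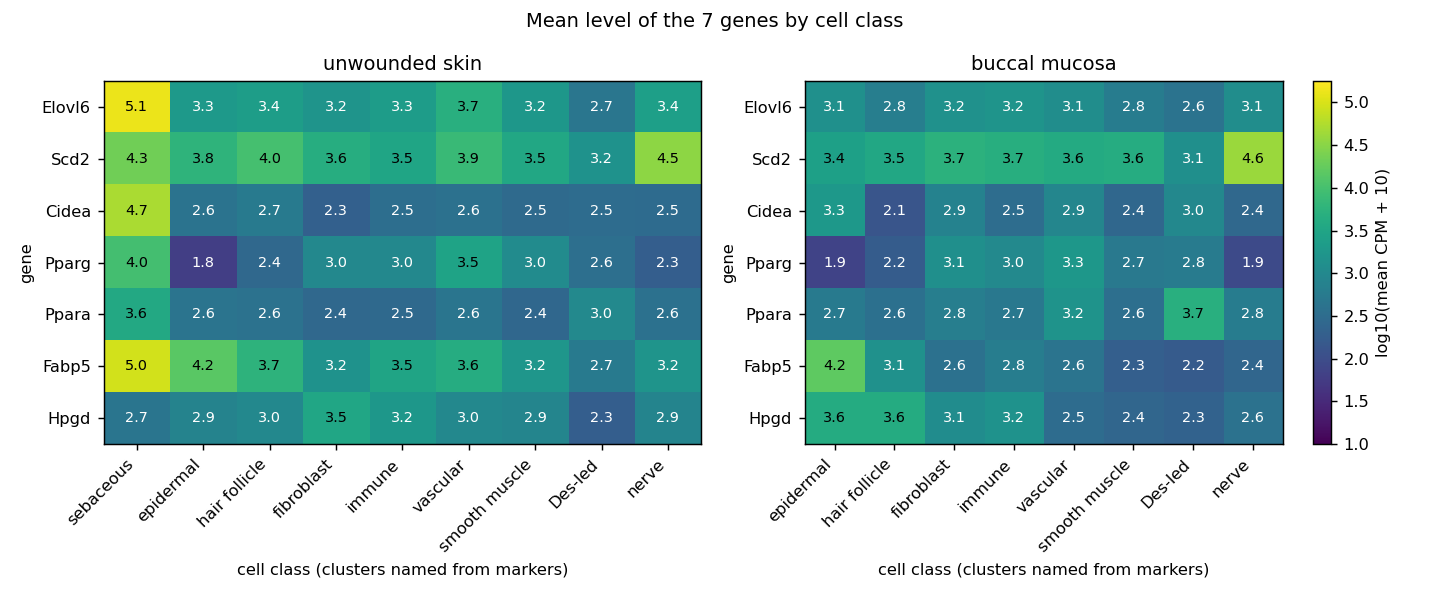
Mean level of each gene (rows, as log10 of mean CPM + 10, printed in each cell and given by colour) by cell class (columns) over 7 unwounded skin sections on the left and the buccal sections on the right. Salivary-like and unnamed cells are not shown. Among the classes shown, sebaceous-like cells are highest in skin for Elovl6, Cidea, Fabp5, Pparg and Ppara. Nerve-like cells lead for Scd2 in both tissues, fibroblast-like cells lead for Hpgd in skin, and Des-led cells lead for Ppara in buccal mucosa.

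Sebaceous-like cells made up 1.25 to 4.42% of Control and 1.69 to 3.73% of PITX1+ cells, yet held a large part of these transcripts. Their share of all *Cidea* transcripts was 34.2 to 83.2% in Control and 48.9 to 77.2% in PITX1+ sections, and that of *Elovl6* 25.4 to 78.4% and 31.9 to 76.6%. For *Fabp5* the share was 24.5 to 73.2% in Control and 15.7 to 38.5% in PITX1+, and for *Pparg* 9.05 to 42.6% and 16.8 to 43.4%. The share of *Scd2* did not overlap between the groups, at 0.718 to 2.27% in Control and 2.82 to 12.9% in PITX1+ sections. How many of all genes had shares without overlap was not counted, so this cannot be called particular to *Scd2*. For genes with much of their RNA in the gland, such as *Cidea* and *Elovl6*, fewer gland cells and less RNA per cell cannot be told apart in a whole-section level.

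Several of these genes were higher in other cells that lay near the gland. Fibroblast-like and immune-like cells within 25 µm of a sebaceous-like cell were compared with those more than 100 µm away in each of 7 sections. The rest of the panel was not compared in this way, so the directions below cannot be called particular to these genes. The near-to-far ratio of *Cidea* ran from 5.33 to 57.2 with a median of 23.9, that of *Elovl6* from 3.87 to 25.9 with a median of 11.5, and that of *Fabp5* from 1.98 to 15.1 with a median of 5.20, each above 1 in 7 of 7 sections. *Scd2* was also higher near the gland in 7 of 7 sections (1.20 to 3.70, median 1.56). *Pparg* was higher in 4 of 7 and *Ppara* in 5 of 7, whereas *Hpgd* was lower near the gland in 7 of 7 sections (0.342 to 0.986, median 0.559). Whether these transcripts were made in the neighbouring cells or assigned to them from the gland was not tested, and levels of *Elovl6*, *Cidea*, *Fabp5* and *Scd2* in other skin classes carry this limit.

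**Figure D2:**
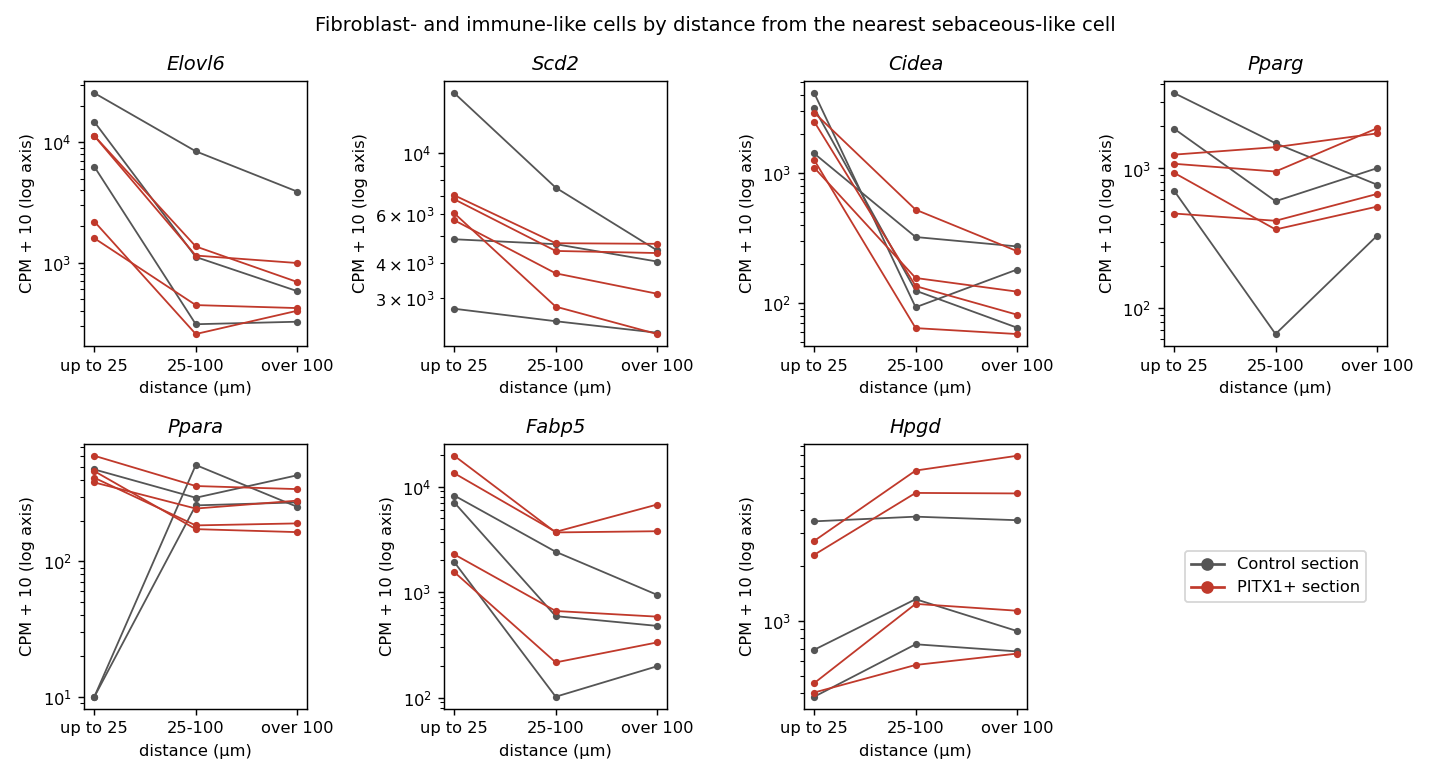
Level (CPM + 10, log axis) of the 7 genes in fibroblast-like and immune-like cells up to 25, 25 to 100 and over 100 µm from the nearest sebaceous-like cell, with 1 line per skin section. Cidea, Elovl6, Fabp5 and Scd2 were higher within 25 µm than beyond 100 µm in 7 of 7 sections and Hpgd was lower in 7 of 7.

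Buccal mucosa is a lining epithelium without hair follicles, and sebaceous-like cells were nearly absent there, at 12 cells over 7 sections. Without the gland, the epidermal classes held 98.2 to 99.2% of *Fabp5*, 84.2 to 96.1% of *Hpgd* and 83.2 to 92.7% of *Cidea* transcripts in the 6 buccal sections that had epidermal cells. *Fabp5* averaged 15865 CPM ± 2602 and *Hpgd* 4168 CPM ± 461 (SD, n = 6) in those cells. *Cidea* averaged 1830 CPM ± 350 in epidermal cells and 964 CPM in Des-led cells. Des-led cells were a median 18.0% of buccal cells, against 2.56 to 5.68% of Control skin cells.

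Muscle and nerve had the highest mean levels of *Ppara* and *Scd2* among the ordered classes of buccal mucosa. *Ppara* averaged 4717 CPM ± 661 (SD, n = 7) in Des-led cells, against 1535 CPM in vascular-like cells, and Des-led cells were higher in 7 of 7 sections. They held 17.5 to 57.8% of all buccal *Ppara* transcripts; the lowest share was in Buccal 6, where salivary-like cells held 41.5% and epidermal cells 23.8%. *Scd2* averaged 40929 CPM ± 19464 in nerve-like cells and 5392 CPM in fibroblast-like cells, again higher in 7 of 7 sections, and was lowest in Des-led cells at 1300 CPM. In Buccal 6, a salivary-like class made up 43.4% of cells, had 62394 CPM of *Scd2* and held 93.7% of that section's *Scd2*.

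**Figure D3:**
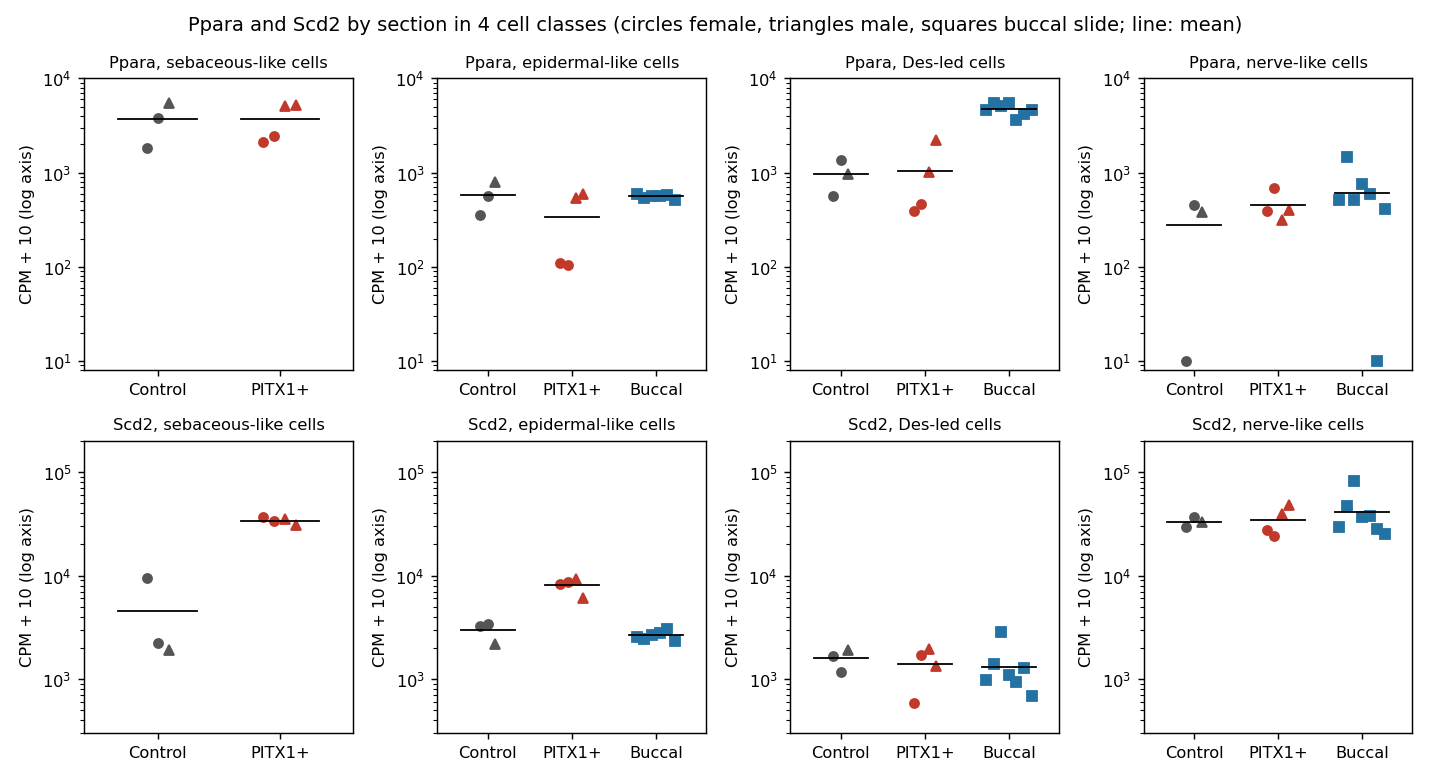
Level (CPM + 10, log axis) of Ppara and Scd2 in sebaceous-like, epidermal, Des-led and nerve-like cells, with 1 point per section (circles female, triangles male, squares buccal slide) and a line at the mean of each group. Ppara in Des-led cells lay at 3642 to 5467 CPM in buccal sections and at 383 to 2234 CPM in Control and PITX1+ skin sections, while the Scd2 ranges of the groups overlapped in nerve-like cells.

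Buccal 3 stood apart from the other 6 buccal sections and had no epidermal cells. It held 6511 CPM of *Pparg* over the whole section, against 132 to 180 CPM in the others, and 7018 CPM of *Elovl6*, against 751 to 1148 CPM. *Angptl4*, a secreted inhibitor of lipoprotein lipase and a textbook PPAR target, was at 3297 CPM there against 52.7 to 128 CPM, and *Gpx3* at 47891 CPM against 1120 to 2844 CPM. Its *Pparg* lay in vascular-like cells (39.6% of its transcripts), in fibroblast-like cells (32.5%) and in unnamed cells (18.0%). The epithelial genes were low, with *Fabp5* at 641 CPM and *Hpgd* at 679 CPM. Buccal results below for epidermal cells rest on the other 6 sections, and those for Des-led and nerve-like cells were repeated without this section.

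In sebaceous-like cells, *Scd2* was far higher in PITX1+ than in Control sections. It was at 9414, 2210 and 1885 CPM in Control 1 to 3, and at 36822, 33372, 35005 and 30750 CPM in PITX1+ 1 to 4. The groups did not overlap, which held for 7% of genes higher and 6% lower among those tested, and the 4 PITX1+ sections lay close together on both slides. The log2 difference was 3.20 (SE 0.39, edgeR quasi-likelihood test, adjusted p = 2.3e-08), with 2.83 within the female slide (adjusted p = 1.6e-12) and 3.80 within the male slide (adjusted p = 3.7e-11). *Scd2* was counted 82, 10 and 35 times in the Control glands, so the Control levels of replicates 2 and 3 rest on few molecules. It passed the threshold under 20 of 21 other settings and did not when all genes were used to form the clusters (2.37, adjusted p = 0.0807).

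Of the 200 genes tested in sebaceous-like cells, 12.5% were called at an adjusted p under 0.05, 5.5% higher and 7% lower, and *Scd2* was the 1 of the 7 genes that was called. *Elovl6* was at 165098, 196950 and 128971 CPM in Control and at 134357, 179813, 60434 and 58040 CPM in PITX1+ sections. The male PITX1+ glands were the 2 lowest, while the female PITX1+ glands lay within the Control range. The difference was -0.55 over both slides (adjusted p = 0.453), 0.11 within the female slide (adjusted p = 0.928) and -1.44 within the male slide (adjusted p = 0.00157), and the 2 slides differed (interaction -1.55, adjusted p = 0.0340, a call made for 2% of genes). Both the male value and the interaction rest on 1 male Control section. Over both slides *Elovl6* passed when only transcripts over the nucleus were counted (-0.86, adjusted p = 0.0364).

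*Fabp5* was at 73249, 85986 and 65805 CPM in the Control glands and at 144165, 120926, 81569 and 61323 CPM in the PITX1+ glands. The 2 female PITX1+ sections were highest, and the male ones lay in or near the Control range. The difference was 0.51 over both slides (adjusted p = 0.461), 1.02 within the female slide (adjusted p = 0.00930) and -0.21 within the male slide. *Fabp5* passed under 3 of 21 other settings, which were the female slide, per cell (1.39, adjusted p = 0.0216) and without Control 3 (1.24, adjusted p = 0.00405). Without Control 3 the male slide has no Control, so with slide as covariate the difference again comes from the female sections alone. Here and below, a PITX1+ difference without Control 3 is therefore not separate from the female slide.

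*Cidea*, *Pparg* and *Ppara* separated the slides rather than the conditions. *Cidea* was at 18599 and 26525 CPM in the female and 102423 CPM in the male Control glands, and at 22327 and 21274 CPM in the female and 79771 and 92754 CPM in the male PITX1+ glands. *Pparg* was at 5618 to 7003 CPM in the 4 female sections and at 12476 to 14809 CPM in the 3 male sections, and *Ppara* at 1837 to 3758 CPM and at 5064 to 5493 CPM. In all 3 genes every male section lay above every female section. The share of all genes that split the slides this way was not counted, so the split cannot be called particular to these 3. Sex and slide cannot be told apart, and the difference was not tested. The PITX1+ differences were -0.09 for *Cidea* (adjusted p = 0.915), -0.14 for *Pparg* and -0.15 for *Ppara* (adjusted p = 0.841 each). *Hpgd*, at 0 to 431 CPM in Control and 196 to 947 CPM in PITX1+ glands, differed by 0.66 (adjusted p = 0.542), and the 0 came from Control 2, whose gland cells held 4524 transcripts in all.

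A further 5 genes of the panel are called pathway genes as a short name only, since no source used here defines them as 1 pathway. They were *Rxra*, the shared partner receptor, *Rora*, a related receptor, *Crabp2*, a retinoic acid carrier, *Angptl4*, and *Abca8a*, an ABC transporter. *Abca8a* was far higher in nerve-like cells of Control skin (mean 21163 CPM) than in Control glands (mean 1432 CPM), where Control 2 rests on few molecules. In sebaceous-like cells 2 of the 5 fell and none rose. *Angptl4* was at 14007, 8179 and 4416 CPM in Control and at 2411, 2901, 1541 and 3180 CPM in PITX1+ glands, with no overlap. It fell by 1.52 on the log2 scale (adjusted p = 2.6e-04), with -1.75 within the female slide (adjusted p = 9.7e-05) and -1.16 within the male slide (adjusted p = 0.104), and passed under 17 of 21 other settings, but not per cell (-0.63, adjusted p = 0.356), with 60 clusters (-1.09, adjusted p = 0.101) or without the slide covariate (-1.62, adjusted p = 0.110). *Abca8a* was at 1952, 1105 and 1239 CPM in Control and 476, 364, 917 and 488 CPM in PITX1+ glands, a log2 difference of -1.45 (adjusted p = 0.00886; female slide -1.63, adjusted p = 0.0312; male slide -1.21, adjusted p = 0.280). It passed under 10 of 21 other settings, and not without Control 1 (-1.06, adjusted p = 0.176), Control 3 (-1.43, adjusted p = 0.0815) or PITX1+ 2 (-1.34, adjusted p = 0.0681). *Rxra* (-0.06), *Rora* (-0.62) and *Crabp2* (-0.56) did not pass. Under other settings *Rora* passed over the nucleus (-0.80, adjusted p = 0.0197) and *Crabp2* with unscaled clustering (-1.05, adjusted p = 0.0190).

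**Figure D4:**
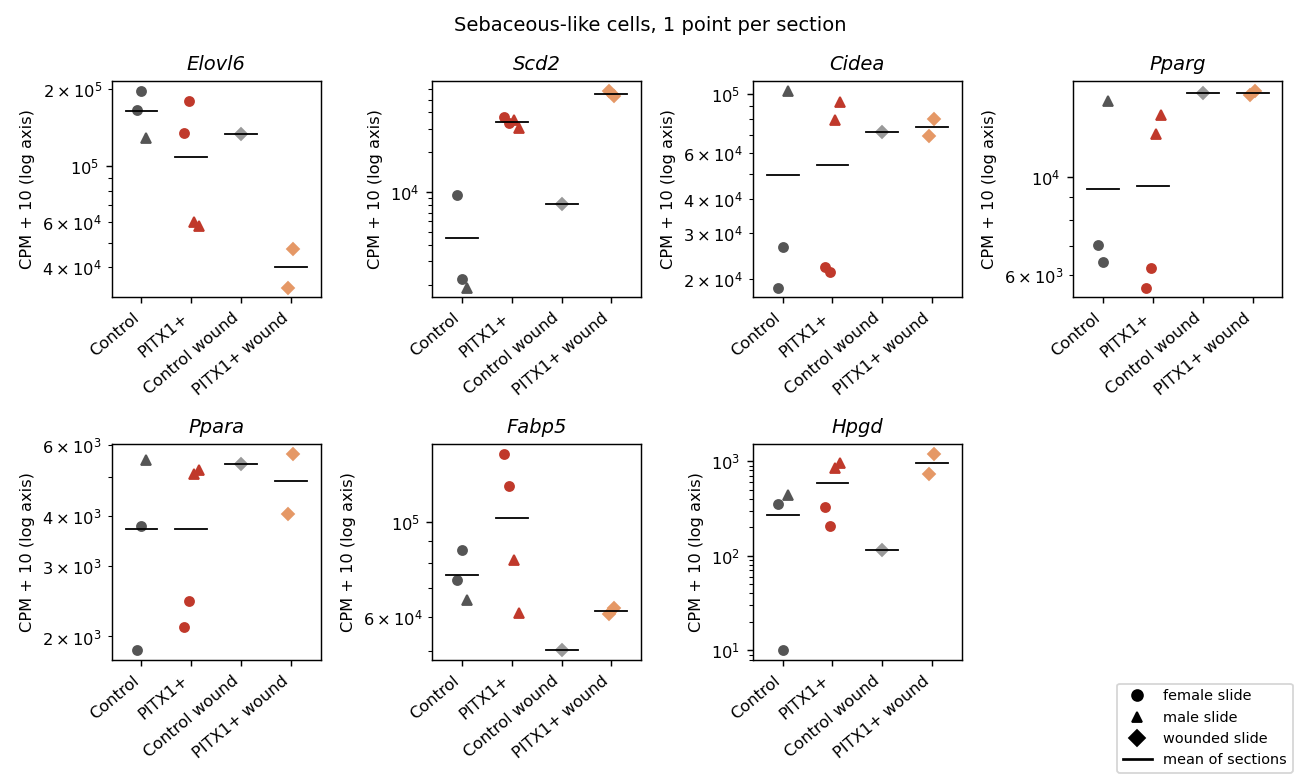
Level (CPM + 10, log axis) of the 7 genes in sebaceous-like cells, with 1 point per section of Control, PITX1+ and wounded skin, the slide shown by the marker and a line at the mean of sections. Scd2 separates the groups on both slides (1885 to 9414 CPM in Control, 30750 to 36822 CPM in PITX1+), while Cidea, Pparg and Ppara separate the female from the male slide.

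The markers of sebaceous-like cells themselves summed to 132147 to 206031 CPM in Control and 143948 to 170000 CPM in PITX1+ glands. Over the markers of activated keratinocytes the sum was 41447 to 56808 CPM in Control and 55994 to 70531 CPM in PITX1+ glands, nearly without overlap. For hair follicle markers it was 12400 to 13409 CPM and 9061 to 14821 CPM. The part of these neighbouring classes in the *Scd2* difference was not tested. The median log2 difference of the 7 genes was -0.09, against 0.01 over all genes tested.

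In epidermal cells, *Scd2* and *Fabp5* were higher in PITX1+ sections. Markers of other cells moved with the group in the same cells: the sebaceous list summed to 8767 to 10596 CPM in Control and 15553 to 39106 CPM in PITX1+ (*Krt79* alone 2152 to 3329 CPM and 5281 to 23377 CPM, while *Prxl2a* overlapped at 618 to 916 CPM and 406 to 1034 CPM), the lymphocyte list to 4426 to 8744 CPM and 1507 to 2884 CPM, and the macrophage and dendritic list to 7183 to 8623 CPM and 2002 to 6485 CPM; their part in the results was not tested. *Scd2* was at 3263, 3365 and 2164 CPM in Control 1 to 3 and at 8250, 8715, 9170 and 6051 CPM in PITX1+ 1 to 4, with no overlap. The log2 difference was 2.16 (SE 0.35, edgeR adjusted p = 0.0183), with 2.41 within the female slide (adjusted p = 0.00718) and 1.80 within the male slide (adjusted p = 0.267). Of the 324 genes tested there, 9.57% were called, 8.02% higher and 1.54% lower, and 2 of the 7 genes were called higher. *Scd2* passed under 17 of 21 other settings, and not without Control 1 (2.07, adjusted p = 0.0864) or Control 2 (2.16, adjusted p = 0.0768).

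*Fabp5* was at 2729, 2466 and 1886 CPM in Control epidermal cells and at 30105, 51560, 8173 and 3552 CPM in PITX1+ ones. All 4 PITX1+ values exceeded the Controls, and the female values were the highest by far. The log2 difference was 3.56 (SE 0.90, adjusted p = 0.0453), with 5.07 within the female slide (adjusted p = 0.00464) and 1.61 within the male slide (adjusted p = 0.307); the difference between the slides did not pass (-3.46, adjusted p = 0.114; 0.617% of genes passed). *Fabp5* passed under 13 of 21 other settings. Its adjusted p was 0.191 without Control 1, 0.169 without Control 2, 0.106 without PITX1+ 1 and 0.0567 without PITX1+ 2.

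*Cidea* was at 172, 132 and 84.6 CPM in Control epidermal cells and at 220, 330, 1655 and 261 CPM in PITX1+ ones, with no overlap and 1 section far above the rest. The difference was 2.42 (adjusted p = 0.0616), and it passed under 7 of 21 other settings, among them DESeq2 (2.38, adjusted p = 0.00229) and per cell (2.77, adjusted p = 0.0223). In PITX1+ 3 the sebaceous markers summed to 39106 CPM in epidermal cells, against 8767 to 10596 CPM in the Controls and 15553 CPM at the lowest among PITX1+ sections. *Krt79* made up 23377 CPM of that sum, and *Prxl2a*, at 406 CPM, was below every Control section; the part of gland transcripts was not tested. Without PITX1+ 3 *Cidea* differed by 1.88 (adjusted p = 0.0297) and without PITX1+ 4 by 2.57 (adjusted p = 0.0140). Genes that did not overlap and were higher in PITX1+ made up 8.95% of those tested, and among the 7 they were *Scd2*, *Fabp5* and *Cidea*.

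*Hpgd* was at 300, 337 and 1052 CPM in Control epidermal cells and at 487, 663, 1489 and 1217 CPM in PITX1+ ones. The sections were higher in PITX1+ on each slide, but the groups overlapped, with a difference of 1.27 (adjusted p = 0.0803; female slide 1.93, adjusted p = 0.0233; male slide 0.36). It passed under 6 of 21 other settings, among them DESeq2 (1.16, adjusted p = 0.0251), per cell (1.78, adjusted p = 0.0190) and without Control 3 (1.93, adjusted p = 0.0233). *Elovl6* was at 3006, 2769 and 2491 CPM in Control and at 1025, 931, 959 and 2633 CPM in PITX1+, with PITX1+ 4 alone in the Control range. Its difference was -0.49 (adjusted p = 0.385). *Ppara* did not pass (-0.91, adjusted p = 0.117), and passed under 1 of 21 other settings, DESeq2 (-1.04, adjusted p = 0.0115). *Pparg* did not pass (0.00, adjusted p = 0.996) and was under 110 CPM in every one of these sections. The median of the 7 differences was 1.27, against -0.03 over all genes tested. With DESeq2 alone, 2 of the pathway genes passed, *Rxra* (-0.95, adjusted p = 0.0396) and *Angptl4* (1.19, adjusted p = 0.0441). With edgeR, of the 5 pathway genes *Crabp2* rose and the others did not pass. It was at 9313, 9207 and 5974 CPM in Control and at 39466, 29426, 23833 and 9105 CPM in PITX1+ (log2 difference 2.30, adjusted p = 0.0352). The *Crabp2* ranges overlapped by PITX1+ 4, and the difference was 2.92 within the female slide (adjusted p = 0.0115) and 1.44 within the male slide (adjusted p = 0.307). It passed under 13 of 21 other settings, with an adjusted p of 0.167 without Control 1, 0.169 without Control 2, 0.106 without PITX1+ 1 and 0.0706 without PITX1+ 2.

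**Figure D5:**
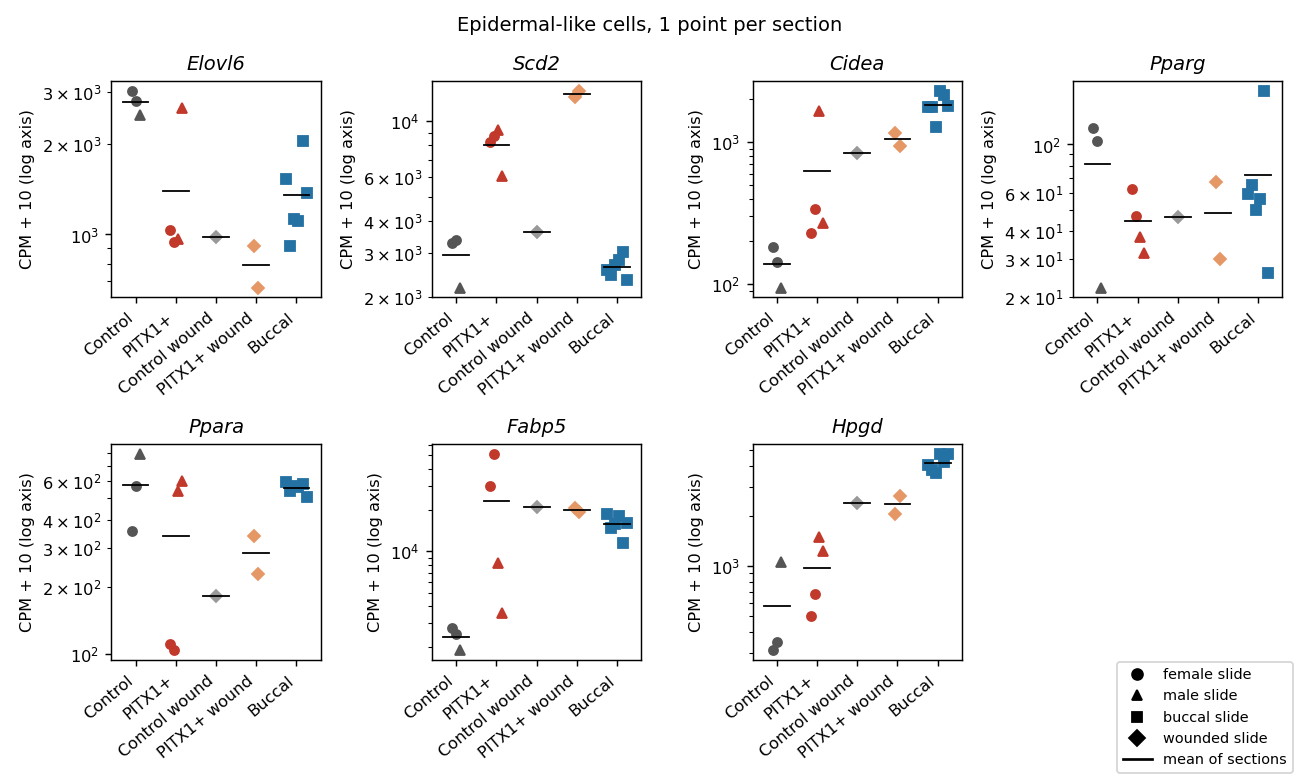
Level (CPM + 10, log axis) of the 7 genes in epidermal cells, with 1 point per section of each group, the slide shown by the marker and a line at the mean of sections. Scd2 (2164 to 3365 CPM against 6051 to 9170 CPM) and Fabp5 (1886 to 2729 CPM against 3552 to 51560 CPM) do not overlap between Control and PITX1+ sections of unwounded skin.

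The make-up of the epidermal cells differed between the groups. Suprabasal epidermal-like cells were 96.1 to 100% of epidermal cells in Control and 20.2 to 85.4% in PITX1+ sections, where activated keratinocyte-like cells were 6.05 to 39.9% and basal keratinocyte-like cells 6.59 to 33.7%. Within suprabasal epidermal-like cells alone, *Scd2* was at 3257, 3365 and 2187 CPM in Control and at 4717, 4879, 5079 and 4932 CPM in PITX1+ sections, still without overlap and closer together. In the activated class of PITX1+ sections it was at 11892 to 16777 CPM. *Fabp5* within suprabasal epidermal-like cells was at 2730, 2466 and 1875 CPM in Control and at 15765, 28235, 4836 and 2878 CPM in PITX1+ sections, again without overlap. The basal keratinocyte markers nevertheless summed to 109301 to 147887 CPM in Control epidermal cells, against 56188 to 115570 CPM in PITX1+ ones. The Control class named suprabasal epidermal-like thus carried basal markers too, and layers are not matched between the groups. The values within 1 named class were not tested. The share of all genes without overlap in that class was not counted, so the lack of overlap cannot be called particular to *Scd2* and *Fabp5*.

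Over whole sections, *Scd2* was at 5092, 2883 and 3457 CPM in Control and at 8200, 11144, 12060 and 10196 CPM in PITX1+ skin. The groups did not overlap, and the difference was 1.33 (SE 0.27, edgeR adjusted p = 0.0177), near 1.34 within the female slide (adjusted p = 0.0307) and 1.32 within the male slide (adjusted p = 0.0782). It was the 1 called of the 7 genes, where 20.4% of the genes were called (10.4% higher and 10.1% lower) and 11% were higher without overlap, and it passed under 13 of 17 other settings, losing the call without the slide covariate (1.34, adjusted p = 0.0852), without Control 2 (1.31, adjusted p = 0.0720) or PITX1+ 2 (1.30, adjusted p = 0.0520). *Crabp2*, one of the pathway genes, was 1.27 (adjusted p = 0.0779) and passed under 7 of 17 other settings, among them DESeq2 (1.23, adjusted p = 0.0191) and per cell (2.29, adjusted p = 0.0014). Of the pathway genes 2 of 5 were lower, *Rxra* (-1.49) and *Abca8a* (-1.40, adjusted p = 0.0164 each), and each passed under 11 of 17 other settings. *Rxra* was -1.50 within the female slide (adjusted p = 0.0307) and -1.47 within the male slide (adjusted p = 0.0608), and *Abca8a* -1.62 (adjusted p = 0.0157) and -1.04 (adjusted p = 0.0902). Per cell they were -0.45 (adjusted p = 0.383) and -0.37 (adjusted p = 0.566), and without the slide covariate the adjusted p was 0.249 and 0.216. Both lost the call without Control 2 (adjusted p = 0.0720 each) or PITX1+ 2 (adjusted p = 0.0695 and 0.0724), and *Abca8a* also without Control 1 (adjusted p = 0.0510). The median of the 7 genes was -0.10, against -0.05 over all genes.

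The slides gave different values for *Fabp5* and *Cidea*. *Fabp5* was at 3545, 2641 and 3737 CPM in whole Control sections and at 22303, 28801, 5024 and 3773 CPM in PITX1+ sections, and the female PITX1+ sections stood far above all others. The groups did not overlap, and the difference over both slides was 1.68 (adjusted p = 0.116), past the threshold with DESeq2 (1.65, adjusted p = 0.0150), per cell (2.78, adjusted p = 0.00219), without Control 3 (3.09, adjusted p = 0.00376) and without PITX1+ 4 (2.18, adjusted p = 0.0493). Within the slides it was 3.09 for the female (adjusted p = 0.00332) and -0.13 for the male on the TMM scale, while the unscaled CPM of both male PITX1+ sections was above that of Control 3 (interaction -3.23, adjusted p = 0.0148, a call made for 5.18% of genes). *Cidea* differed by 1.07 within the female slide (adjusted p = 0.0879) and by -1.62 within the male slide (adjusted p = 0.0514), with an interaction of -2.69 (adjusted p = 0.0438). *Elovl6* was -1.88 within the male slide (adjusted p = 0.0479) and -0.59 over both.

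Muscle and nerve showed no PITX1+ difference that passed. In Des-led cells 0 of 161 genes were called by edgeR (0%), 15 at an unadjusted p under 0.05, and DESeq2 called 2. *Ppara* there was at 551, 1337 and 965 CPM in Control and at 383, 451, 1007 and 2234 CPM in PITX1+ skin, overlapping and with a difference of -0.16 (adjusted p = 0.915). In nerve-like cells 0 of 96 genes were called by edgeR (0%), 7 at an unadjusted p under 0.05, and DESeq2 called 0. *Scd2* there was at 29685, 37167 and 32860 CPM in Control and at 27553, 24135, 39344 and 47906 CPM in PITX1+ skin (-0.20, adjusted p = 0.968). In these classes 3 and 2 of the 7 genes had enough counts to be tested, and none of the pathway genes tested passed over both slides. Des-led *Rxra* passed without Control 3 (-1.06, adjusted p = 0.0478) and within the female slide (-1.19, adjusted p = 0.0195), while nerve-like *Angptl4* was counted 0 times in the 2678 transcripts of Control 3 and was at 2752 and 3558 CPM in PITX1+ 3 and 4, so no fold is given for the male slide.

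Buccal epidermal cells had far more *Cidea*, *Fabp5* and *Hpgd* than Control skin epidermal cells. *Cidea* was at 1273 to 2285 CPM in 6 buccal sections and at 84.6 to 172 CPM in Control skin, a difference of 5.08 (SE 0.32, adjusted p = 1.9e-07). *Fabp5* was at 11485 to 18802 CPM against 1886 to 2729 CPM (4.02, SE 0.30, adjusted p = 8.6e-07), and *Hpgd* at 3595 to 4727 CPM against 300 to 1052 CPM (3.99, SE 0.57, adjusted p = 1.1e-04). None of these ranges overlapped, as was the case for 15% of genes in that direction, and all 3 genes passed under 20 of 20 other settings, with sizes from 3.04 to 5.50 for *Cidea*, 2.75 to 4.54 for *Fabp5* and 2.93 to 5.12 for *Hpgd*. The lowest size came with transcripts over the nucleus for *Cidea* and with total counts for the others. Of the 320 genes tested, 70% were called, 32.8% higher and 37.2% lower, so a call is common in this comparison. Marker lists of other cells moved as well. The hair follicle list summed to 6651 to 9114 CPM in Control and 37848 to 47911 CPM in buccal sections, and the sebaceous list to 8767 to 10596 CPM and 10836 to 13594 CPM. Within the sebaceous list, *Krt79* was at 2152 to 3329 CPM in Control and lower, at 92.5 to 193 CPM, in buccal sections. *Prxl2a* was at 618 to 916 CPM in Control and higher, at 1340.5 to 3023 CPM, in buccal sections. The higher sums of these lists are therefore not a measure of gland or follicle cells. The fibroblast list fell from 12685 to 19324 CPM to 2399 to 3787 CPM, and the lymphocyte list from 4426 to 8744 CPM to 405 to 903 CPM. Their part in the results was not tested.

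The epidermal cells of the 2 tissues fell in different clusters. Suprabasal oral-like cells were 53.0 to 63.6% and basal keratinocyte-like cells 36.3 to 47.0% of buccal epidermal cells, whereas 96.1 to 100% were suprabasal epidermal-like in Control skin; tissue and layer cannot be told apart in the tested values. Within buccal epidermal cells, *Cidea* was at 1628 to 2894 CPM in suprabasal oral-like and at 9.59 to 19.1 CPM in basal keratinocyte-like cells, where it was counted 1 to 3 times per section. *Fabp5* was at 13262 to 21562 CPM and at 6495 to 8742 CPM in these layers, and *Hpgd* at 2799 to 4964 CPM and at 3604 to 6555 CPM. *Cidea* was thus below its Control skin range of 84.6 to 172 CPM in the basal layer, while *Fabp5* and *Hpgd* were above theirs in both layers. The Control ranges cover all epidermal cells and not 1 layer. Basal keratinocyte markers summed to 109301 to 147887 CPM in those Control cells, against 56103 to 83030 CPM in buccal epidermal cells. The values by layer were not tested.

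*Scd2* and *Ppara* were also called higher in buccal epidermal cells, and those calls rest on the scaling. *Scd2* was at 2323 to 3008 CPM in buccal and 2164 to 3365 CPM in Control epidermal cells, and *Ppara* at 500 to 584 CPM and 347 to 786 CPM, so that both overlapped. With TMM factors, which set the typical gene to no change, the differences were 1.10 for *Scd2* (adjusted p = 3.4e-04) and 1.12 for *Ppara* (adjusted p = 0.0153). Scaled by total counts they were -0.16 (adjusted p = 0.518) and -0.022 (adjusted p = 0.945), and the median of all genes moved by -1.27 between the scalings. *Elovl6* was 0.16 with TMM (adjusted p = 0.519) and -1.04 by total counts (adjusted p = 0.00306). *Pparg* did not pass (0.90, adjusted p = 0.228). Of the 5 pathway genes *Crabp2* was higher (2.10) and *Rxra* (-2.95), *Abca8a* (-2.11) and *Angptl4* (-1.56) were lower. *Angptl4* lost the call per cell (-1.28, adjusted p = 0.0837) and without Control 1 (-1.07, adjusted p = 0.0856), and the other 3 kept it under 20 of 20 settings.

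In Des-led cells, *Ppara* was higher in buccal mucosa, at 3642 to 5467 CPM in 7 sections against 551, 1337 and 965 CPM in Control skin. The ranges did not overlap, and the difference was 2.39 (SE 0.32, adjusted p = 4.8e-04), past the threshold under 21 of 21 other settings. Of 237 genes tested there, 27% were called, 15.6% higher and 11.4% lower, and 15.2% were higher without overlap. Marker lists moved too. The skeletal muscle list summed to 403453 to 482079 CPM in Control and 281196 to 328835 CPM in buccal sections. The smooth muscle and pericyte list summed to 394683 to 486180 CPM and 276642 to 319912 CPM. *Des*, which is in both lists, alone averaged 430504 CPM in Control, so these 2 sums mostly follow 1 gene and do not tell the muscle types apart. The sebaceous list summed to 13781 to 16822 CPM and 22672 to 33230 CPM, and the blood endothelium list to 4192 to 6164 CPM and 8203 to 12077 CPM. Only 12 sebaceous-like cells lay in buccal sections, so the sum of the sebaceous list is not a measure of gland cells. The nerve and fibroblast lists overlapped. The part of these in the results was not tested. *Cidea* was also called (1.40, SE 0.35, adjusted p = 0.0123) and passed under 19 of 21 other settings. It did not pass over the nucleus alone (-0.089, adjusted p = 0.919) or with all genes clustered (1.23, adjusted p = 0.0697). The others of the 7 did not pass; *Fabp5* (-1.39, adjusted p = 0.0724) passed under 6 of 15 other settings, among them DESeq2 (-1.59, adjusted p = 0.0251) and without Control 3 (-1.81, adjusted p = 0.00237). *Rxra* (-1.32) and *Angptl4* (-2.24) were the 2 of 5 pathway genes called, both lower. *Rxra* passed under 18 of 21 other settings, and not per cell (-0.52, adjusted p = 0.317), over the nucleus (-0.56, adjusted p = 0.0668) or without Control 2 (-0.73, adjusted p = 0.0583). *Angptl4* passed under 17 of 21, and not without Control 1 (-1.88, adjusted p = 0.0588).

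Nerve-like *Scd2* had a buccal minus Control difference of 0.03 (SE 0.37, adjusted p = 0.957; per cell 1.23, adjusted p = 0.0185), in a comparison where 27.5% of 138 genes were called, 8.7% higher and 18.8% lower. *Elovl6* was -1.66 there (adjusted p = 0.0906), and passed without Buccal 3 (-2.004, adjusted p = 0.0297) or without Control 3 (-1.89, adjusted p = 0.0396). Of the pathway genes *Rora* was higher (4.03, adjusted p = 0.00111), while *Rxra* (-2.71, adjusted p = 2.5e-04) and *Crabp2* (-1.78, adjusted p = 0.0296) were lower. *Rora* averaged 73.3 CPM in Control and 1801 CPM in buccal nerve-like cells. Its Control level rests on very few molecules under every setting, so the size of its difference is uncertain. *Rora* passed under 19 of 19 and *Rxra* under 20 of 20 other settings, but *Crabp2* under 8 of 14, and not per cell (-0.49, adjusted p = 0.506), without Control 1 (-1.39, adjusted p = 0.225) or without Control 2 (-1.77, adjusted p = 0.0909).

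The wounded slide had 1 Control and 2 PITX1+ sections, so no test was made and the intervals cover counting error only (exact Poisson, 95%). Sebaceous-like *Scd2* was at 8137 CPM (6907 to 9524) in the Control wound and at 58181 CPM (55570 to 60883) and 52893 CPM (50253 to 55635) in the PITX1+ wounds. *Elovl6* was at 133610 CPM (128469 to 138904) in the Control wound and at 33255 CPM (31289 to 35313) and 46984 CPM (44498 to 49573) in the PITX1+ wounds. *Scd2* was thus higher and *Elovl6* lower in both PITX1+ wounds, the same directions as in the male unwounded glands.

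*Pparg* in the wounded glands was close together, at 15487 CPM in the Control and 15286 and 15650 CPM in the PITX1+ wounds, with overlapping intervals. *Cidea* was at 71924 CPM in the Control wound and 69069 and 80570 CPM in the PITX1+ wounds, and *Ppara* at 5355 CPM against 4024 and 5697 CPM. All 3 genes were above the female unwounded glands in every wound; *Pparg* was also above the male range of 12476 to 14809 CPM, while 2 of the 3 *Cidea* values and 1 *Ppara* value were below the male ranges. *Hpgd* was at 105 CPM (12.7 to 379) in the Control wound and at 718 CPM (455 to 1077) and 1196 CPM (828 to 1671) in the PITX1+ wounds.

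In epidermal cells of the wounds, *Scd2* was at 3618 CPM (3442 to 3801) in the Control section and at 12426 CPM (12163 to 12693) and 13185 CPM (12928 to 13446) in the PITX1+ sections. Activated keratinocyte-like cells were 3.44% of epidermal cells in the Control wound and 40.1 and 36.1% in the PITX1+ wounds, and in the suprabasal epidermal-like layer alone *Scd2* was at 1569 CPM in the Control and at 4975 and 4279.6 CPM in the PITX1+ wounds. *Fabp5* spanned a narrow range by comparison, at 20941 CPM (20515 to 21374), 20799 CPM (20459 to 21144) and 19457 CPM (19144 to 19773). The Control wound thus held several-fold more epidermal *Fabp5* than any unwounded Control section, on a slide of its own. Its epidermal cells were 31.3% suprabasal epidermal-like, 36.6% suprabasal oral-like and 28.7% basal keratinocyte-like. In unwounded Control sections 96.1 to 100% were suprabasal epidermal-like. Slide, wounding and the make-up of the cells cannot be told apart. *Elovl6* was at 969 CPM in the Control wound and at 905 and 654 CPM in the PITX1+ wounds, and *Hpgd* at 2392, 2052 and 2626 CPM. Over whole wounds *Scd2* was at 5245 CPM in the Control and at 8072 and 5826 CPM in the PITX1+ sections.

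The genes whose mean levels ran most like each of the 7 were found over 27 profiles of cell class and group, with Pearson's r of log2(CPM + 10) across profiles that share libraries and depth. *Elovl6* and *Fabp5* (r = 0.74) and *Elovl6* and *Cidea* (0.72) were the closest pairs among the 7, and *Hpgd* and *Ppara* ran most against each other (-0.57). Outside the 7, *Elovl6* was most like *Krt79* (0.81), *Prxl2a* (0.77) and *Dlk2* (0.69), and *Cidea* like *Prxl2a* (0.77), *Krt79* (0.65) and *Crabp2* (0.57). *Fabp5* was most like *Crabp2* (0.88), *Dsg1b* (0.80) and *Krt79* (0.79). The genes closest to *Pparg* were *Angptl4* (0.71), *Cxcl5* (0.59) and *Ms4a1* (0.57), and those closest to *Ppara* were *Cebpb* (0.81), *Rora* (0.77) and *Hdgf* (0.71). *Scd2* was most like *Fzd3* (0.72), *Il1rap* (0.70) and *Itga6* (0.68), and *Hpgd* like *Efemp1* (0.59), *Mmp14* (0.57) and *Cdc20* (0.56).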

How the data were processed

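Xenium transcripts were measured in 4 slides, 1 sample each. The authors' deposited transcript lists give each molecule's gene, cell, position and quality score, and the authors' deposited cell tables give counts per cell; segmentation and software versions are not given in the sources used here. Calls of quality score 20 or higher were recounted per cell, which matched the deposited counts in 100% of cells, and 98.1 to 99.1% of transcripts lay in cells. Control codes, 213 in number, made up 0.0375 to 0.0980% of calls. Sections were formed by chaining cells within 100 µm (200 µm on the wounded slide), with at least 2000 cells, and ordered by mean position; eschar was not excluded from the wounds. Identical cell identifiers on different slides numbered 25.

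Cells with at least 10 transcripts were clustered over all slides without the 7 genes (log values at unit variance, 40 principal components, k-means with 45 clusters) and named where at least 3 markers of a list were 1.5-fold enriched and found in 10% of cells; no cells were removed as doublets. The unit variance, the rule for ties and the rule for the Des-led class, which rests on fewer than 3 markers, were set after clusters were seen. Counts were summed per section and class (at least 10 cells) and tested with edgeR 4.0.16 (R 4.3.3, quasi-likelihood, TMM, slide as covariate in skin, Benjamini-Hochberg over all genes tested, threshold 0.05). The buccal epidermal comparison used 6 sections, because 1 had no epidermal cells, which departs from the planned 7. Class orders used exact two-sided sign-flip tests on log2(CPM + 10). The scripts were tested on simulated data. Alternatives were DESeq2 1.42.0, total counts, values per cell, no gene filter, a quality score of 30, transcripts over the nucleus, 20 transcripts per cell, 30 or 60 clusters, all genes clustered, no covariate and leaving out each section; unscaled clustering and each slide alone were added after the data were seen. Motifs were searched in RefSeq promoters (GRCm38.p6).

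The members and lists were chosen with earlier results of these data known. The text names the 7 genes, *Pitx1*, the 5 pathway genes, marker genes and, for each of the 7, the 3 genes most like it; *Gpx3* in 1 buccal section was named after its values were seen.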

Additional observations from a re-analysis of the deposited data

Results flagged for a closer look

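Single sections lay far from the rest of their group in 14 of 63 sets of values examined; chance gives about 1 in 20. Of these, 9 were Buccal 3, the section without epidermal cells. Over the whole section it had 6511 CPM of *Pparg* (others 132 to 180), 7018 CPM of *Elovl6* (751 to 1148), 3170 CPM of *Cidea* (819 to 1658) and 1827 CPM of *Ppara* (796 to 1176). Its Des-led cells had 2422 CPM of *Elovl6* (44.9 to 104), 1792 CPM of *Pparg* (231 to 589) and 2810 CPM of *Scd2* (674 to 1384). Its nerve-like cells had 81609 CPM of *Scd2* (25041 to 47634) and 337 CPM of *Pparg* (0 to 76.3). Buccal 6, which held the salivary-like cells, had 32592 CPM of *Scd2* over the whole section (2492 to 13179) and 166 CPM of *Pparg* in epidermal cells (15.8 to 55.0).

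In skin, epidermal *Cidea* was at 1655 CPM in PITX1+ 3 (220 to 330 in the other PITX1+ sections). PITX1+ 4 had 2845 CPM of *Cidea* over the whole section (1309 to 1418) and 2633 CPM of *Elovl6* in epidermal cells (931 to 1025).

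The PITX1+ difference was unlike on the female and male slides for 3 results by edgeR's interaction term. These were *Fabp5* over whole sections (-3.23, adjusted p = 0.0148), *Cidea* over whole sections (-2.69, adjusted p = 0.0438) and *Elovl6* in sebaceous-like cells (-1.55, adjusted p = 0.0340), with the male minus the female difference given. Interactions were called for 5.18% of genes over whole sections and 2% in sebaceous-like cells.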

How the results depend on the processing

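Of 1605 recomputed values, 1321 kept their direction and their side of the threshold, 149 differed in sign but passed under neither setting, 68 lost the threshold, 63 gained it and 4 that passed under at least 1 setting turned. These 4 were buccal epidermal *Scd2* (-0.16), *Ppara* (-0.022) and *Elovl6* (-1.04) under total counts and buccal Des-led *Cidea* (-0.089) over the nucleus. Genes called in PITX1+ epidermal cells numbered 31, against 129 with DESeq2, 67 per cell, 8 with 30 clusters, 52 with all genes clustered, 48 and 0 on the female and male slides alone, and 2 to 79 leaving out each section. In sebaceous-like cells 25 became 16 with total counts and with all genes clustered, 2 without the slide covariate, 14 on the male slide and 14 to 27 leaving out each section. Over whole sections 67 became 114 per cell, 8 without the slide covariate, 39 on the male slide and 13 to 85. In Des-led cells 0 became 2 with DESeq2, 11 per cell, 16 on the female slide and 0 to 20 (20 without Control 3), and in nerve-like cells 0 became 1 without a gene filter and on the female slide, 12 on the male slide and 0 to 1. In buccal Des-led cells 64 became 107 without a gene filter, 30 over the nucleus, 117 with unscaled clustering and 38 to 168; in buccal nerve-like cells 38 became 71 per cell, 82 without a filter, 14 over the nucleus and 15 to 77; the cause was not tested. Buccal epidermal calls (224) stayed within 1.5 times. The share of calls that were higher moved from 50.7% to 63.5% with total counts and 97.4% per cell over whole sections, from 83.9% to 51.2% with DESeq2, 59.1% with total counts and 98.5% per cell in PITX1+ epidermal cells, and from 44% to 94.4% per cell in sebaceous-like cells. In buccal epidermal cells it moved from 46.9% to 22.7% with total counts and 60.5% per cell, in buccal Des-led cells from 57.8% to 44.2% with DESeq2 and 91.8% per cell, and in buccal nerve-like cells from 31.6% to 63.0% with total counts and 95.8% per cell. Per cell, the median of all PITX1+ differences shifted by 1.02 over whole sections, 0.42 in epidermal and 0.88 in sebaceous-like cells; with total counts it shifted by -0.67 in epidermal cells. Unscaled clustering gave no nerve-like class and no value there; with 30 or 60 clusters or 20 transcripts per cell the sebaceous-like class took in another Krt79-led cluster. Single-slide values rest on 1 male or 2 female Control sections. PITX1+ differences without Control 3 come from the female sections alone. No paired analysis was possible because the labels carry no section numbers. The median of 26 to 32 transcripts per Control cell limits low genes such as epidermal *Pparg*.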
